A study of Rattus norvegicus with 14 samples.

Results

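The genes described here encode the transporters and enzymes that take up glucose, split it to pyruvate and exchange lactate (glycolysis, 26 listed genes), and those that feed pyruvate into the tricarboxylic acid (TCA) cycle and turn that cycle (20 listed genes). They were chosen by name, and 44 of the 46 have a row among the 16816 gene symbols of the count table: 25 of glycolysis and 19 of the TCA cycle. Hk1 and Idh3b are not analysed here. The cells were PCCL3, a rat thyroid follicular line kept in medium with thyrotropin, insulin and hydrocortisone, and their RNA was measured by RNA-seq. PPFP cells stably express Myc-tagged human PPFP, the PAX8-PPARG fusion protein of thyroid carcinomas, and EV cells carry the empty vector. Each line received 1 uM pioglitazone, a PPARG agonist, or its vehicle for 16 hours before harvest, which gave 4 groups of 3 libraries: EV-Pio, EV+Pio, PPFP-Pio and PPFP+Pio. Each genotype is 1 stably transfected line, so an effect of PPFP and any other difference between the lines cannot be told apart, and whether a line began as 1 clone is not given in the sources used here.

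Glycolysis turns glucose into pyruvate in the cytosol, with phosphofructokinase as its main control point, and pyruvate is either reduced to lactate and exported or carried into mitochondria. There the pyruvate dehydrogenase complex makes acetyl-CoA for the TCA cycle, while pyruvate carboxylase makes oxaloacetate, which refills the cycle and serves lipid synthesis in fat cells. Many of these steps have several isoforms that differ in tissue and in regulation, which is why the same step is followed here through each of its genes.

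The libraries held between 23.7 M and 35.2 M counts on genes. Of 11 thyroid markers 10 had a mean of at least 1 CPM (counts scaled to library size with TMM factors). Their summed level was 10741 to 13914 CPM in EV-Pio and 11452 to 14625 in EV+Pio. It was 13610 to 14308.5 CPM in PPFP-Pio and lower, at 10191 to 10428, in PPFP+Pio. Single markers moved as well. Without pioglitazone 3 of the 11 were higher and 6 lower in PPFP than in EV cells, against 22% and 23.1% of all genes. In PPFP cells pioglitazone raised 1 and lowered 6, against 7.63% and 7.13%. With the replicate number as a block, which pairs the libraries of a line, it raised 1 and lowered 10, against 27.7% and 23.9%. Their part in the results below was not tested. Fibroblast markers summed to at most 34.5 CPM with 3 of 9 at 0 throughout, leukocyte markers to at most 7.16 CPM with 2 of 8 at 0, and endothelial markers to at most 1.52 CPM with 1 of 5 at 0. Libraries 2 and 3 of PPFP+Pio were much closer to each other than any other replicates, with a chi-square per degree of freedom of 1.67 against 17.2 to 109 for the other pairs. This still exceeded sampling noise, but that cannot tell independent cultures from repeated libraries of the same culture. They were kept as separate libraries because the study's methods describe 3 independent experiments. If they were repeats, the SDs, standard errors and p values that involve PPFP+Pio understate the spread. Counts of genes are also given below without each of them. Replicate 3 of both EV groups stood apart in the opposite sense: it held the highest level of its group for 13 of 23 glycolysis genes in EV-Pio and for 15 of 23 in EV+Pio, and for 14 and 16 of 19 TCA cycle genes. Over all genes it was highest for 41.6% and 39.9%. Replicate 1 of the PPFP groups stood apart in the same way for the TCA cycle, as the highest library of its group for 17 of 19 genes in PPFP-Pio and 16 of 19 in PPFP+Pio, against 45.6% and 46% of all genes.

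Glycolysis as a whole took a similar share of the counts in every group, and the TCA cycle took a larger share in PPFP cells; these shares are descriptions and were not tested. The 25 glycolysis genes held 1.63% ± 0.221 of all counts in EV-Pio, 1.58% ± 0.175 in EV+Pio, 1.64% ± 0.0275 in PPFP-Pio and 1.68% ± 0.0405 in PPFP+Pio (SD, n = 3 here and throughout). The 19 TCA cycle genes held 0.502% ± 0.0334 and 0.487% ± 0.0391 in EV cells without and with pioglitazone, and 0.574% ± 0.0147 and 0.614% ± 0.0150 in PPFP cells. For the TCA cycle the highest EV library, at 0.528%, was below the lowest PPFP library, at 0.564%. For glycolysis the PPFP libraries lay within the range of the EV libraries, which was set by EV replicate 2 at 1.44% and EV replicate 3 at 1.88%. In bulk RNA, fewer expressing cells and less RNA per cell cannot be told apart.

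The first comparison asked which of these genes differ between PPFP and EV cells without pioglitazone. Of 24 glycolysis genes tested, 2 were higher and 5 lower in PPFP cells at an adjusted p under 0.05 (edgeR's quasi-likelihood test, adjusted over all genes tested), and of 19 TCA cycle genes 9 were higher and 1 lower. Over all 10264 genes tested, 22% were higher and 23.1% lower. The share of glycolysis genes called higher was thus below that of all genes and the share of TCA cycle genes called higher above it. With a fold change above 2 required as well, 1 glycolysis gene was higher and 3 were lower, and 2 TCA cycle genes were higher and 0 lower, against 7.27% higher and 7.31% lower of all genes. The median log2 fold change was -0.04 for glycolysis and 0.30 for the TCA cycle, beside 0.0016 for all genes. The TCA cycle median was 0.13 without EV-Pio replicate 2 and 0.38 without EV-Pio replicate 3. Leaving out 1 library at a time gave glycolysis medians of -0.036 to 0.0039.

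When both lines had received pioglitazone, 5 glycolysis genes were higher and 4 lower in PPFP cells, and 9 TCA cycle genes were higher and 1 lower. The background was 26.3% higher and 26.4% lower of 10291 genes. With the fold limit, 2 glycolysis genes were higher and 3 lower and 3 TCA cycle genes were higher and 0 lower, against 9.3% and 10.4% of all genes. The medians were 0.12 for glycolysis, 0.38 for the TCA cycle and 0.012 for all genes. Leaving out 1 library at a time gave medians of 0.077 to 0.19 for glycolysis and of 0.21 to 0.53 for the TCA cycle. Scaling by library size alone shifted all medians together, to -0.12 for all genes, -0.013 for glycolysis and 0.25 for the TCA cycle, and left the distance of both pathways from all genes much the same. Without replicate 1 of the PPFP group 8 TCA cycle genes were higher and 2 lower in PPFP cells without pioglitazone, and 8 and 1 with it, when 43.5% and 48.7% of all genes were called, with medians of 0.21 and 0.27.

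The number of glycolysis genes called depended on EV replicate 3. Without it in EV-Pio the count rose from 7 to 13 (6 higher, 7 lower) and that of TCA cycle genes from 10 to 12, while the share of all genes called went from 45.2% to 46.8%. Without it in EV+Pio the glycolysis count went from 9 to 14 (9 higher, 5 lower) and the TCA cycle count from 10 to 13, with 52.7% and 55.3% of all genes. Gapdh, the glyceraldehyde-3-phosphate dehydrogenase, is an example: it measured 4002, 3535 and 5530.2 CPM in EV-Pio and 4708, 4694 and 4844 in PPFP-Pio, and its log2 fold change of 0.15 ± 0.15 (SE) had an adjusted p of 0.45 with all libraries. The third EV library lay above every PPFP-Pio library and the other two below.

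**Figure D1:**
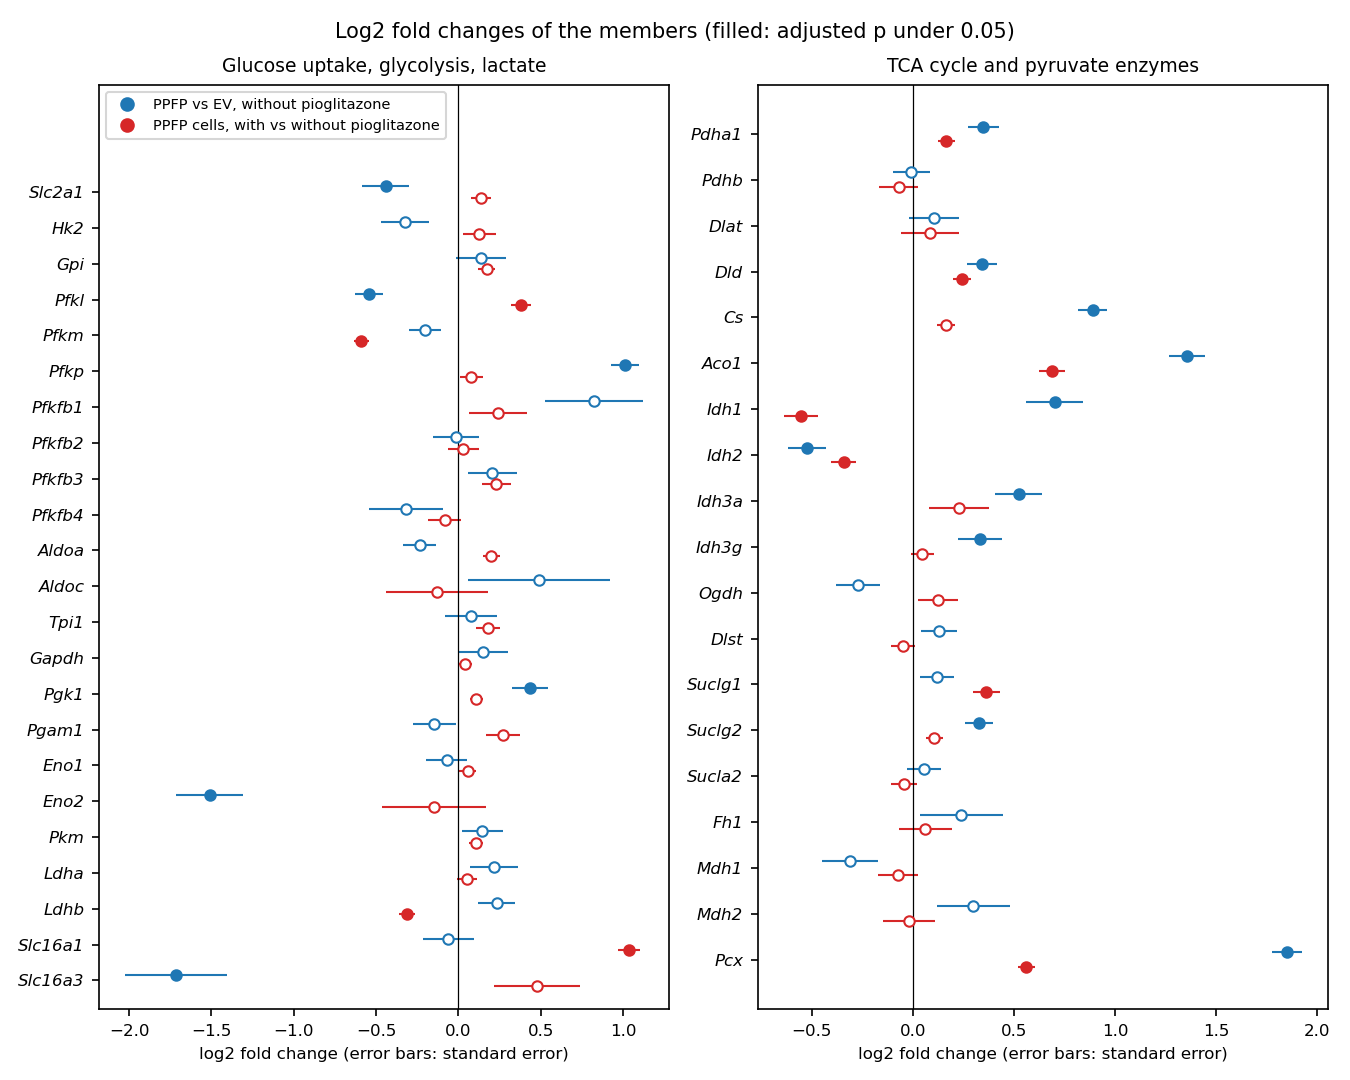
Log2 fold change (x axis) of each tested gene (y axis) for PPFP against EV cells without pioglitazone (blue) and for pioglitazone in PPFP cells (red); points are estimates, bars are standard errors, filled points passed an adjusted p of 0.05, and Slc2a4 is left out. In the TCA cycle panel Pcx, Aco1 and Cs lie farthest to the right in blue, and in the glycolysis panel Slc16a1 lies farthest to the right in red.

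Slc2a1 and Slc2a4, the glucose transporter genes of the list that could be tested, were lower in PPFP cells without pioglitazone. Slc2a1 encodes GLUT1, the basal glucose transporter, and measured 344, 472 and 336 CPM in EV-Pio against 289, 272 and 276 in PPFP-Pio. Every PPFP library was below every EV library, with a log2 fold change of -0.44 ± 0.14, adjusted p = 0.036. With pioglitazone the values were 347, 465 and 323 in EV cells and 290.3, 325 and 304 in PPFP cells, which overlapped (log2 fold change -0.28 ± 0.14, adjusted p = 0.15). The call without pioglitazone was lost when EV-Pio replicate 1 or any 1 of the PPFP-Pio libraries was left out, with adjusted p values of 0.051 to 0.099.

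Slc2a4 encodes GLUT4, the insulin-responsive transporter of muscle and fat. Its counts were 73, 65 and 53 in EV-Pio and 72, 59 and 62 in EV+Pio, against 1, 5 and 3 in PPFP-Pio and 2, 2 and 2 in PPFP+Pio. The lines were far apart, at a level of 2.44 CPM or less in every library. Without pioglitazone the ratio of EV to PPFP cells was 18.6 (95% exact interval 9.60 to 41.3, counting error only; adjusted p = 0.0002). With pioglitazone the ratio was 27.9 (95% exact interval 12.6 to 77.003, counting error only; adjusted p = 2.2e-05). The sum of 9 striated muscle markers moved with the cell line as well. It was between 3.70 and 17.1 CPM in EV libraries and between 0.795 and 1.98 CPM in PPFP libraries. Only 2 of these genes had a mean of at least 1 CPM and 2 were at 0 throughout, so the sum rests on few of them. The part of these genes in the Slc2a4 difference was not tested. Slc2a3, which encodes the neuronal transporter GLUT3, had between 0 and 4 counts per library and was not tested.

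Hexokinase 2, the inducible enzyme that traps glucose as its 6-phosphate, did not pass the test. Hk2 measured 175, 219 and 150.2 CPM in EV-Pio and 133, 148 and 147 in PPFP-Pio (log2 fold change -0.33 ± 0.15, adjusted p = 0.11). All PPFP-Pio libraries lay below all EV-Pio libraries, by a margin small beside the spread of the EV libraries. Gpi, the next enzyme, which isomerizes the phosphate to fructose 6-phosphate, spread from 598 to 963 CPM within EV-Pio and did not pass either (adjusted p = 0.5 without and 0.092 with pioglitazone).

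Of the 3 phosphofructokinase genes, which encode the liver, muscle and platelet subunits of one enzyme, 1 was higher and 1 lower in PPFP cells without pioglitazone, against 22% and 23.1% of all genes. Pfkp, the platelet subunit, measured 227, 219 and 220.1 CPM in EV-Pio and 482, 421 and 424 in PPFP-Pio, a 2.02-fold higher level in PPFP cells (log2 fold change 1.01 ± 0.084, adjusted p = 8.3e-05). Pfkl, the liver subunit, measured 393, 399 and 468 in EV-Pio and 277, 289.8 and 283 in PPFP-Pio and was lower in PPFP cells (log2 fold change -0.54 ± 0.084, adjusted p = 0.0015). Neither gene's groups overlapped. Pfkm, the muscle subunit, measured 168, 135 and 160.4 in EV-Pio and 131, 133 and 133 in PPFP-Pio, with a log2 fold change of -0.20 ± 0.097 that did not pass (adjusted p = 0.13).

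In PPFP cells pioglitazone raised 1 and lowered 1 of the 3 subunit genes, against 7.63% and 7.13% of all genes, and with the replicate number as a block it raised 2 and lowered 1, Pfkp being the one added, against 27.7% and 23.9%. Pfkl rose to 348, 386 and 369 CPM in PPFP+Pio (log2 fold change 0.38 ± 0.060, adjusted p = 0.0096), and Pfkm fell to 92.0, 85.6 and 85.5 (log2 fold change -0.59 ± 0.048, adjusted p = 0.00098). With the drug the PPFP and EV values of Pfkl no longer differed past the threshold (EV+Pio 392, 423 and 431 CPM, adjusted p = 0.17), whereas Pfkm was lower in PPFP cells (EV+Pio 160.5, 134 and 166 CPM, log2 fold change -0.78 ± 0.097, adjusted p = 0.00049). Pfkp measured 502, 459.7 and 437 CPM in PPFP+Pio against 215, 199 and 209 in EV+Pio, 2.29-fold higher (adjusted p = 3.3e-05). Without PPFP-Pio replicate 3 or PPFP+Pio replicate 2 the Pfkl response to pioglitazone did not pass, at adjusted p values of 0.052 and 0.051.

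The bifunctional PFKFB enzymes set the level of fructose 2,6-bisphosphate, the activator of phosphofructokinase. Pfkfb1, the liver isoform, was expressed at a low level of 2.01, 1.34 and 2.98 CPM in EV-Pio and 4.29, 2.92 and 3.80 in PPFP-Pio, where the ranges overlapped (adjusted p = 0.056). It just missed the threshold there and passed it in DESeq2, in edgeR's exact test, in the fit of all 12 libraries and without EV-Pio replicate 3. With pioglitazone the values were 1.81, 1.47 and 2.51 in EV cells and 4.27, 4.77 and 3.94 in PPFP cells, which no longer overlapped and gave a 2.29-fold higher level in PPFP cells (log2 fold change 1.20 ± 0.22, adjusted p = 0.0035). Pfkfb3, the inducible isoform, was higher in PPFP cells with pioglitazone (log2 fold change 0.42 ± 0.13, adjusted p = 0.031) and did not pass without it (adjusted p = 0.3). That call was lost in 4 of the 6 fits that left out 1 library and with scaling by library size alone. Pfkfb2 and Pfkfb4 passed in neither comparison, with log2 fold changes of -0.01 and -0.32 without pioglitazone.

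In the lower part of the pathway 2 of 9 genes differed between the lines without pioglitazone, Pgk1 and Eno2, against 45.2% of all genes. Pgk1, the phosphoglycerate kinase that makes the first ATP of the pathway, was higher in PPFP cells (885, 912 and 1176 CPM in EV-Pio, 1313, 1295 and 1342 in PPFP-Pio; log2 fold change 0.43 ± 0.11, adjusted p = 0.015), and likewise with pioglitazone (log2 fold change 0.58 ± 0.11, adjusted p = 0.0042). Eno2, the neuron-type enolase, was lower in PPFP cells, at 128, 136 and 111 CPM in EV-Pio and 30.2, 52.3 and 47.4 in PPFP-Pio (log2 fold change -1.51 ± 0.20, adjusted p = 0.00082). The corresponding values with pioglitazone were 130.5, 135 and 107 and 24.0, 45.2 and 47.6 (log2 fold change -1.64 ± 0.26, adjusted p = 0.0015), and in both cases the lines were well apart. Eno1, the ubiquitous enolase, measured 1890.1 ± 336 CPM in EV-Pio and 1769 ± 87.1 in PPFP-Pio and did not pass (log2 fold change -0.07 ± 0.13, adjusted p = 0.67). The Pgk1 call without pioglitazone was lost without EV-Pio replicate 1 or PPFP-Pio replicate 3. The other 6 genes were Aldoa, Aldoc, Tpi1, Gapdh, Pgam1 and Pkm, and their log2 fold changes without pioglitazone lay between -0.24 (Aldoa) and 0.49 (Aldoc, at under 1 CPM). Gapdh, Pgk1, Ldha, Eno1, Tpi1, Pgam1, Aldoa and Pkm have near-identical pseudogene copies in mammals that could share their reads, so their levels are less certain than those of single-copy genes.

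At the lactate end of the pathway an exporter gene was lower in PPFP cells, and neither lactate dehydrogenase gene passed the test between the lines. Ldha, whose subunit favours lactate formation, measured 2844 ± 628 CPM in EV-Pio and 3248 ± 215 in PPFP-Pio (adjusted p = 0.26), and Ldhb, the heart-type subunit, 226 ± 34.4 and 262 ± 7.71 (adjusted p = 0.13). The libraries of Ldha were 2613, 2364 and 3555 CPM in EV-Pio and 3476, 3048 and 3220.5 in PPFP-Pio, and without replicate 3 of the EV group it was called higher in PPFP cells, both without and with pioglitazone. Slc16a3, which encodes the lactate exporter MCT4, measured 85.2, 65.3 and 147 CPM in EV-Pio and 21.1, 34.6 and 33.2 in PPFP-Pio. PPFP libraries were all below the EV libraries, with a 3.28-fold lower level (log2 fold change -1.71 ± 0.31, adjusted p = 0.0032). With pioglitazone the values were 70.7, 70.5 and 127 in EV cells and 29.6, 49.7 and 44.1 in PPFP cells (log2 fold change -1.09 ± 0.28, adjusted p = 0.015).

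Slc16a1 encodes MCT1, a transporter that carries lactate and pyruvate in either direction, and it had the largest pioglitazone response of all 42 genes tested in PPFP cells. It measured 45.3, 70.2 and 54.9 CPM in EV-Pio, 50.01, 73.9 and 52.8 in EV+Pio, 58.3, 51.1 and 51.7 in PPFP-Pio and 114, 106 and 110.5 in PPFP+Pio. The lines overlapped without the drug (log2 fold change -0.06 ± 0.16, adjusted p = 0.78), and PPFP+Pio lay above all other libraries. Pioglitazone raised it 2.05-fold in PPFP cells (log2 fold change 1.04 ± 0.067, adjusted p = 0.00046), and it was 1.91-fold higher than in EV cells with the drug (log2 fold change 0.93 ± 0.15, adjusted p = 0.0017). Ldhb fell in PPFP cells with pioglitazone, to 216, 212 and 203 CPM from 265, 253 and 267 (log2 fold change -0.31 ± 0.048, adjusted p = 0.0081). That call was lost without PPFP-Pio replicate 3 or PPFP+Pio replicate 2 (adjusted p = 0.051 for each).

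**Figure D2:**
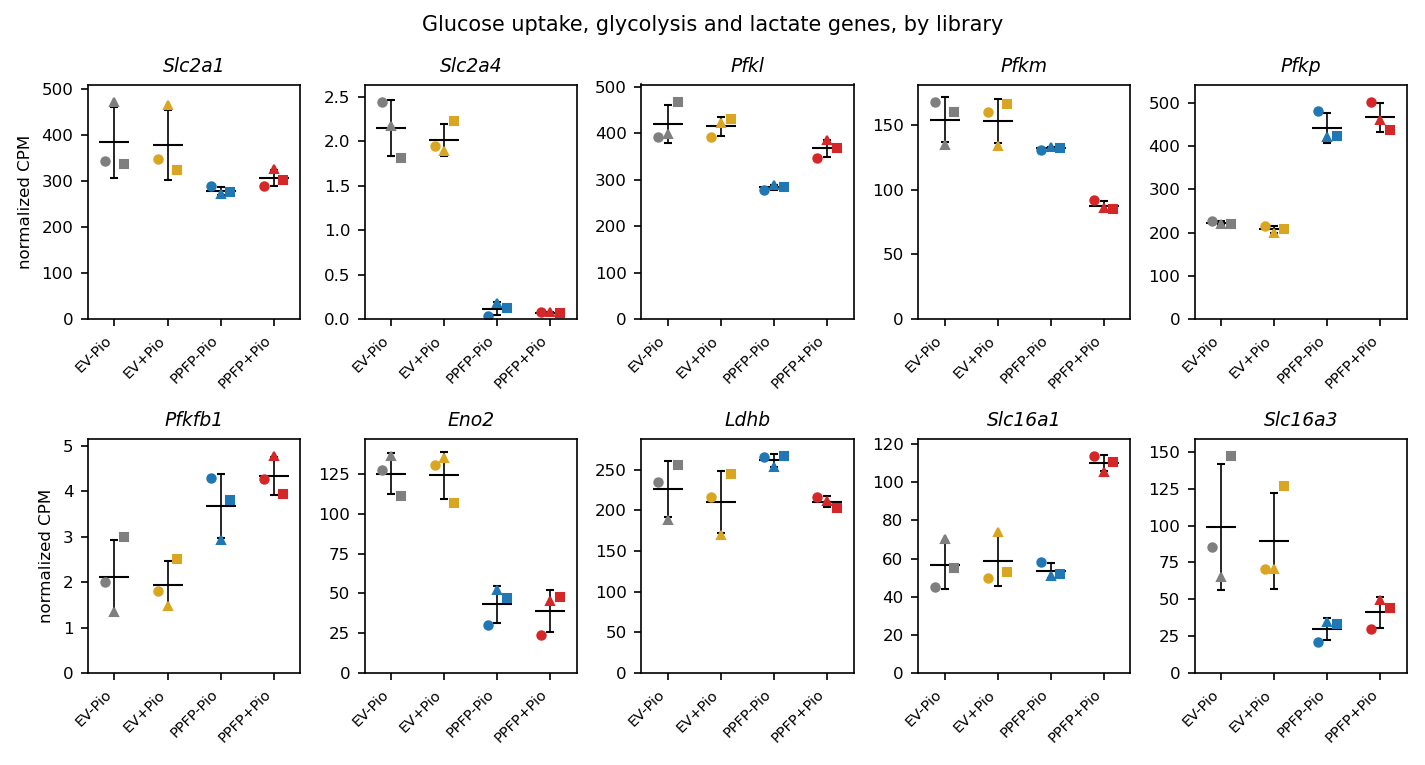
TMM-normalized CPM (y axis, linear, from 0) of 10 glycolysis genes in the 12 libraries by group (x axis); circles, triangles and squares are replicates 1, 2 and 3, horizontal bars the mean and vertical bars the SD of 3 libraries. Pfkp sits at 421 CPM or more in every PPFP library and at 227 or less in every EV library, Slc2a4 is near 0 in PPFP cells, and Slc16a1 is at 106 to 114 in the PPFP+Pio libraries and below 74 elsewhere.

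Pyruvate entered the TCA cycle comparison through 2 routes, and genes of both were higher in PPFP cells. Pcx encodes pyruvate carboxylase, which makes oxaloacetate from pyruvate, and had the largest log2 fold change of the TCA cycle genes. It measured 108, 112 and 111 CPM in EV-Pio and 399, 397 and 382 in PPFP-Pio, and 102, 97.5 and 108 and 580.1, 585 and 569 with pioglitazone. The lines did not overlap in either condition and replicates lay close together. PPFP cells were 3.61-fold higher without (log2 fold change 1.85 ± 0.073, adjusted p = 3.9e-06) and 5.76-fold higher with pioglitazone (log2 fold change 2.53 ± 0.078, adjusted p = 1.9e-06).

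The pyruvate dehydrogenase complex makes acetyl-CoA from pyruvate, and 2 of its 4 listed genes were higher in PPFP cells, against 22% of all genes. Pdha1, the alpha subunit of its first enzyme and the target of the inhibitory kinases, measured 278, 284 and 317 CPM in EV-Pio and 376, 359 and 368 in PPFP-Pio (log2 fold change 0.35 ± 0.076, adjusted p = 0.0076). Dld, the dihydrolipoamide dehydrogenase shared with the oxoglutarate dehydrogenase complex, measured 199, 201 and 223 and 266, 251 and 263 (log2 fold change 0.34 ± 0.075, adjusted p = 0.0076). With the drug Pdha1 differed by 0.55 ± 0.081, adjusted p = 0.0011 and Dld, at 201, 197 and 228 CPM in EV+Pio and 314, 301 and 305 in PPFP+Pio, by 0.58 ± 0.081, adjusted p = 0.00086, and the lines did not overlap in either condition. Pdhb and Dlat, the beta subunit and the acetyltransferase, did not pass, with log2 fold changes of -0.01 ± 0.091 and 0.11 ± 0.12.

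Citrate synthase and cytosolic aconitase were higher in PPFP cells. Cs, which condenses acetyl-CoA with oxaloacetate as the first step of the cycle, measured 244, 243 and 258 CPM in EV-Pio and 472, 439.7 and 449 in PPFP-Pio, 1.85-fold higher (log2 fold change 0.89 ± 0.072, adjusted p = 7.6e-05). With pioglitazone it measured 238, 252 and 263 and 525, 502 and 496, 2.06-fold higher (log2 fold change 1.04 ± 0.074, adjusted p = 4e-05). The lowest PPFP library was in both conditions far above the highest EV library. Aco1, the cytosolic aconitase that doubles as the iron regulatory protein IRP1, measured 199, 175 and 199 CPM in EV-Pio, 196, 164 and 204 in EV+Pio, 514, 475 and 457 in PPFP-Pio and 841, 748 and 735 in PPFP+Pio. The EV groups overlapped and the PPFP groups stood above them in steps that did not overlap. The log2 fold change of Aco1 between the lines was 1.36 ± 0.088, adjusted p = 2.6e-05 in the absence and 2.07 ± 0.11, adjusted p = 1.3e-05 in the presence of pioglitazone.

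Of the 4 isocitrate dehydrogenase genes listed and tested 3 were higher and 1 was lower in PPFP cells without pioglitazone, against 22% and 23.1% of all genes. Idh1, the cytosolic NADP enzyme, measured 109.9, 89.1 and 129.6 CPM in EV-Pio and 197, 159.7 and 169 in PPFP-Pio and was higher in PPFP cells (log2 fold change 0.70 ± 0.14, adjusted p = 0.005). Idh2, its mitochondrial counterpart, measured 683, 578 and 671 and 475, 417 and 433 and was lower (log2 fold change -0.52 ± 0.095, adjusted p = 0.0033); it was the 1 TCA cycle gene called lower. Idh3a, the catalytic subunit of the mitochondrial NAD enzyme, measured 121, 118 and 140.1 and 210.3, 161 and 165 (log2 fold change 0.52 ± 0.12, adjusted p = 0.0089), and Idh3g, a regulatory subunit, was also higher (log2 fold change 0.33 ± 0.11, adjusted p = 0.039), though in only 1 of the 6 fits that left out 1 library. For each of the 4 genes the lines did not overlap without pioglitazone. The share of all genes whose groups did not overlap was not computed, here or for the other genes described so. With pioglitazone Idh1 measured 100.05, 78.2 and 129 in EV cells and 127, 116 and 114 in PPFP cells, which overlapped (log2 fold change 0.25 ± 0.17, adjusted p = 0.25). Idh2 was further apart, at 639, 528 and 638 and 365, 347 and 330.4 (log2 fold change -0.76 ± 0.10, adjusted p = 0.00064), and Idh3a measured 122, 120.2 and 139.9 and 255, 188 and 185 (log2 fold change 0.74 ± 0.13, adjusted p = 0.0029).

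Of the 8 listed genes of the later steps of the cycle 1 was called without pioglitazone and 2 with it, against 45.2% and 52.7% of all genes. Suclg2, the GDP-forming subunit of succinyl-CoA ligase, was higher in PPFP cells without (log2 fold change 0.33 ± 0.071, adjusted p = 0.0075) and with pioglitazone (log2 fold change 0.41 ± 0.079, adjusted p = 0.004). Suclg1, the alpha subunit common to both forms of that ligase, measured 367, 335 and 365 CPM in EV-Pio and 411, 355 and 377 in PPFP-Pio, which overlapped (adjusted p = 0.29). With pioglitazone it measured 356, 303 and 363 and 521, 480.2 and 465, which did not overlap (log2 fold change 0.55 ± 0.096, adjusted p = 0.0026). Ogdh, Dlst, Sucla2, Fh1, Mdh1 and Mdh2, which cover the oxoglutarate dehydrogenase complex, the ADP-forming ligase subunit, fumarase and the malate dehydrogenases, passed in neither comparison. Their log2 fold changes without pioglitazone lay between -0.31 (Mdh1) and 0.30 (Mdh2), and EV replicate 3 was the highest EV library for both.

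**Figure D3:**
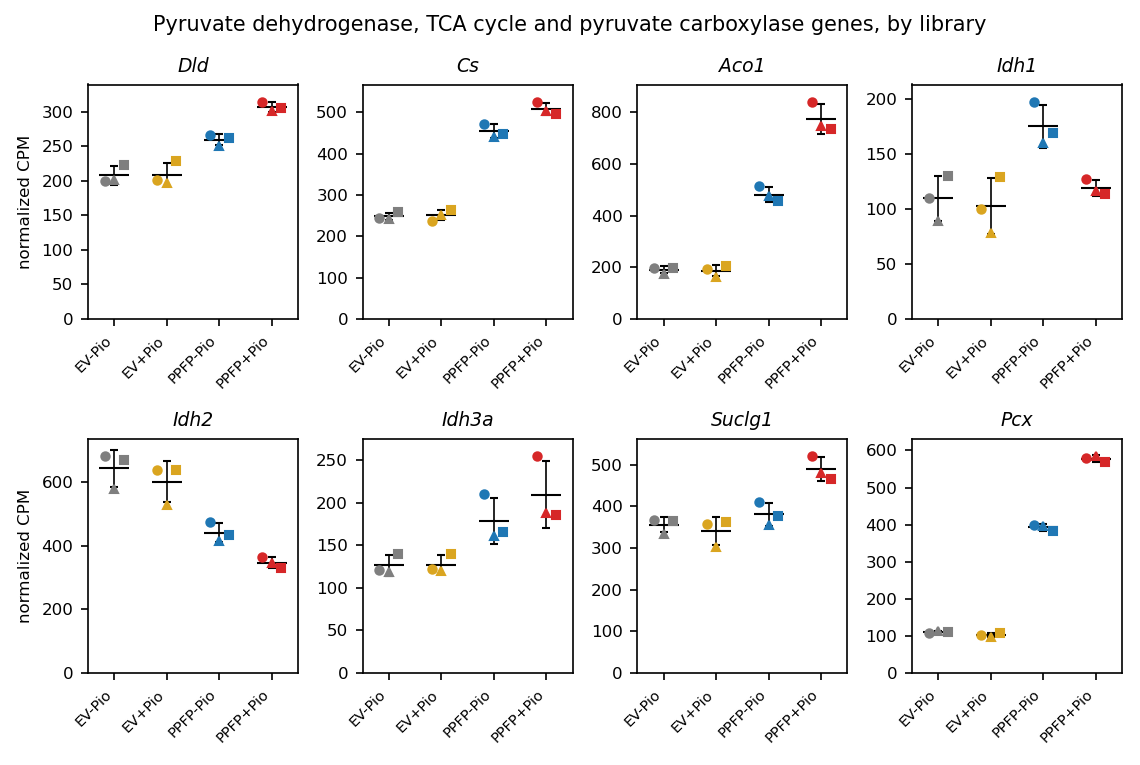
TMM-normalized CPM (y axis, linear, from 0) of 8 TCA cycle genes in the 12 libraries by group (x axis); symbols as replicates 1 (circles), 2 (triangles) and 3 (squares), horizontal bars the mean and vertical bars the SD of 3 libraries. Pcx and Aco1 rise from the EV groups to PPFP-Pio and again to PPFP+Pio, Idh2 steps down in the same order, and Idh1 is high in PPFP-Pio alone.

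In EV cells no gene of either pathway passed the test for pioglitazone. The test called 0 of 24 glycolysis genes, 0 of 19 TCA cycle genes and 0% of the 10146 genes tested, and at an unadjusted p under 0.05 it found 0 members and 16 genes in all. DESeq2 and edgeR's exact test also called 0 genes. With the replicate number as a block, which pairs the libraries within a line, 1 gene in all passed and no member, and 4 of 24 glycolysis and 4 of 19 TCA cycle genes had an unadjusted p under 0.05, as did 605 of the 10146 genes. The log2 fold changes in EV cells lay between -0.16 and 0.05 for glycolysis and between -0.11 and 0.02 for the TCA cycle.

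In PPFP cells pioglitazone raised 2 and lowered 2 of 23 glycolysis genes tested, and raised 5 and lowered 2 of 19 TCA cycle genes, against 7.63% raised and 7.13% lowered of 10064 genes. Past a fold change of 2 there was 1 glycolysis gene, Slc16a1, and 0 of the TCA cycle, against 1.11% raised and 1.31% lowered. The medians were 0.11 for glycolysis and 0.08 for the TCA cycle, beside 0.012 for all genes. Without PPFP+Pio replicate 1 the TCA cycle median was -0.0016. With the replicate number as a block many more genes passed: 13 glycolysis genes rose and 3 fell, and 9 TCA cycle genes rose and 2 fell, against 27.7% raised and 23.9% lowered of all genes. Same-numbered libraries of a line deviated together, so the block removes a difference between pairs that the first fit counts as spread. Without PPFP+Pio replicate 2 the unblocked counts were 2 and 3 genes and without replicate 3 they were 4 and 3, when 6.45% and 7.36% of all genes were called. These counts share the PPFP-Pio libraries with the comparison of the lines without pioglitazone.

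The TCA cycle genes that pioglitazone raised in PPFP cells began with those already higher there. Aco1 rose 1.61-fold (log2 fold change 0.69 ± 0.065, adjusted p = 0.0015) and Pcx 1.48-fold (log2 fold change 0.56 ± 0.042, adjusted p = 0.00073), with values for each library as given above. Suclg1 rose as well (log2 fold change 0.36 ± 0.066, adjusted p = 0.015), and so did Dld (log2 fold change 0.24 ± 0.045, adjusted p = 0.016) and Pdha1 (log2 fold change 0.17 ± 0.042, adjusted p = 0.046). Both NADP isocitrate dehydrogenases fell: Idh1 by 0.55 on the log2 scale (SE 0.085, adjusted p = 0.0084) and Idh2 by 0.34 (SE 0.061, adjusted p = 0.014). For Idh1 this ran against the difference between the lines, and for Idh2 along it. Aco1, Pcx and Idh1 passed in all 6 fits that left out 1 library. Suclg1 and Dld lost their call without replicate 2 or 3 of either group, Idh2 without PPFP-Pio replicate 3 or PPFP+Pio replicate 2 or 3, and Pdha1 in every one of the 6 fits, where Suclg1, Idh2 and Dld had adjusted p values of 0.056 to 0.10.

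Among the genes that passed with the block and not in the unblocked test, Slc16a3 had the largest change. It rose from 21.1, 34.6 and 33.2 to 29.6, 49.7 and 44.1 CPM in replicates 1 to 3, so each pair moved up while the groups overlapped (log2 fold change 0.48, adjusted p = 0.29 without and 4.1e-08 with the block). Slc2a1, Hk2, Gpi, Pfkp, Pfkfb3, Aldoa, Tpi1, Pgk1, Pgam1 and Pkm rose with the block by between 0.08 (Pfkp) and 0.27 (Pgam1) on the log2 scale, and Eno2 fell by 0.16. Of the TCA cycle Cs, Idh3a, Ogdh and Suclg2 were added, at 0.17, 0.23, 0.13 and 0.11. None of these changes reached a fold of 2.

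Whether PPFP and EV cells responded differently was tested as the interaction of line and pioglitazone over the 12 libraries. Pcx and Aco1 responded more in PPFP than in EV cells, by 0.66 ± 0.078, adjusted p = 0.0014 and 0.70 ± 0.13, adjusted p = 0.016 on the log2 scale, and Pfkm responded more negatively (difference -0.59 ± 0.13, adjusted p = 0.04). These 3 were all the members called: 0 of 24 glycolysis genes with a larger and 1 with a smaller response, and 2 and 0 of 19 TCA cycle genes, against 1.38% and 1.26% of 10482 genes. Pcx passed in all 12 fits that left out 1 library, Aco1 in 10, failing without PPFP-Pio replicate 2 or 3 (adjusted p = 0.058 and 0.061), and Pfkm only without EV-Pio replicate 1 or EV+Pio replicate 2, with adjusted p values of 0.060 to 0.12 in the other 10. Slc16a1 had the largest difference, 0.97 ± 0.24, and just missed the threshold (adjusted p = 0.059), whereas it passed with the replicate block within each line (adjusted p = 7.8e-08), in DESeq2 (0.0035) and without EV-Pio replicate 1 or EV+Pio replicate 2 (0.042 and 0.014). With that block 10 glycolysis genes had a larger and 2 a smaller response and 8 and 2 TCA cycle genes, against 17.2% and 17.1% of all genes. The plot of the response in each line shows the EV values gathered around 0 for every gene.

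**Figure D4:**
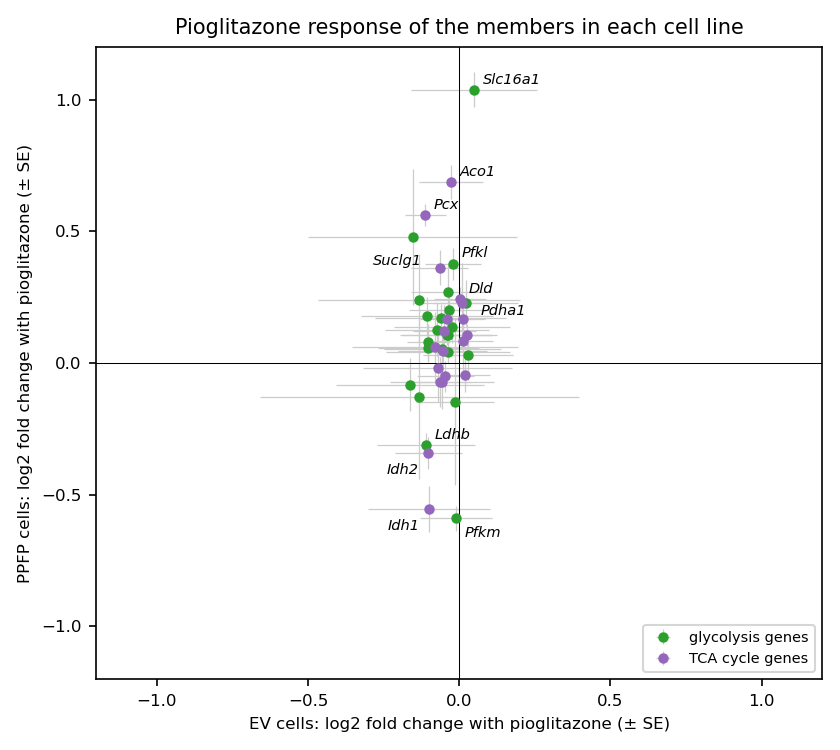
Log2 fold change with pioglitazone in EV cells (x axis) and in PPFP cells (y axis) on equal scales; each point is 1 gene of glycolysis (green) or the TCA cycle (purple), grey bars are standard errors, and names mark genes with an adjusted p under 0.05 in PPFP cells. The points form a column between -0.16 and 0.05 on the x axis that reaches from -0.59 (Pfkm) to 1.04 (Slc16a1) on the y axis.

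Promoters of the members were read from RefSeq (build GRCr8) and searched for a direct repeat of AGGTCA with 1 base between, the usual site of PPARG and its partner RXR, and for motifs of other regulators of these pathways. The table holds 250 bases before to 50 after a start site, with 25 promoters for 22 glycolysis genes and 17 for 17 TCA cycle genes. Slc2a3, Slc2a4, Pgk1, Idh3a and Pcx were not searched. On both strands the exact repeat was in 0 member promoters and in 18 (0.0538%) of all 33469 promoters. At so low a rate a 0 among the members was likely in advance. Variant repeats and sites outside this window were not searched. A single AGGTCA was in 5 glycolysis and 4 TCA cycle promoters (16.2% of all). ACGTG, the core of the site of hypoxia-inducible factors, was in 12 of the 25 glycolysis promoters (48.0%) and 5 of the 17 TCA cycle promoters (29.4%), against 19.3% of all. CACGTG, the E-box of MYC, which always holds ACGTG, was in 3 and 2 promoters (6.42% of all). A match is a description of letters and not a bound site. Slc16a1 and Aco1, the genes with the largest increases under pioglitazone, are shown with the 250 bases before their start and with any of these motifs in capitals. Slc16a1 lies on the plus strand at chr2:194812410-194812659 and has a CACGTG beginning 216 bases before the start, and Aco1 on the plus strand at chr5:60055645-60055894 has none of the motifs in this window.
Slc16a1: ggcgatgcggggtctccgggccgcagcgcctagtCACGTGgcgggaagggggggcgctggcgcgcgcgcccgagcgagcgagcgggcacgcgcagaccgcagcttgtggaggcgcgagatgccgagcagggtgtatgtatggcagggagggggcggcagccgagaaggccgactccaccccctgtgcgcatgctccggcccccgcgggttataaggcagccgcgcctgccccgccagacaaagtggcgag
Aco1: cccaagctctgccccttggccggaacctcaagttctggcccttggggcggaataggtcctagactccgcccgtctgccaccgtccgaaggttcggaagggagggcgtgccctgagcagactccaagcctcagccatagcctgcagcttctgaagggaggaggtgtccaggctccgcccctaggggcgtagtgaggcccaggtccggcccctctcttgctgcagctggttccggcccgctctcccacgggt

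Other genes around the 2 pathways were followed from lists chosen by name. Of 17 further glycolysis and hexose transport genes tested, 2 were higher and 8 lower in PPFP than in EV cells without pioglitazone, against 22% and 23.1% of all genes, among them the transporter genes Slc2a8 (log2 fold change -1.97 ± 0.24, adjusted p = 0.00051) and Slc2a6 (-1.37 ± 0.11, adjusted p = 8.2e-05). Of 22 further genes of the TCA cycle and of pyruvate metabolism, 6 were higher and 3 lower, beside the same background. The largest change was that of Pdk4, a kinase that inhibits the pyruvate dehydrogenase complex and a known PPAR target, which differed between the lines by 1.81 ± 0.13 on the log2 scale in the absence and by 3.29 ± 0.19 in the presence of pioglitazone (adjusted p = 4.1e-05 and 1.9e-05). In PPFP cells pioglitazone raised Pdk4 by 1.80 ± 0.080 (adjusted p = 0.0002), and it raised 1 and lowered 0 of the 17 further glycolysis genes and raised 2 and lowered 2 of the 22, beside a background of 7.63% and 7.13%. With the replicate block these counts were 2 and 2 of 17 and 9 and 3 of 22, against 27.7% and 23.9%. Me1, the malic enzyme that makes cytosolic NADPH, was also higher in PPFP cells (1.02 ± 0.18, adjusted p = 0.0026), and Pdp1, a phosphatase that activates pyruvate dehydrogenase, was lower in PPFP than in EV cells when both had received pioglitazone (-1.19 ± 0.10, adjusted p = 8.4e-05). Of 18 hypoxia-responsive genes outside glycolysis 3 were higher and 1 lower without pioglitazone, against 22% and 23.1% of all genes, and 9 and 1 with it, against 26.3% and 26.4%. In PPFP cells pioglitazone raised 4 and lowered 0 of the 17 tested there, against 7.63% and 7.13%. With the replicate block it raised 11 and lowered 4 of them, against 27.7% and 23.9%. Of the listed adipocyte targets of PPARG only 10 could be tested. Of these, 10 were higher in PPFP cells without pioglitazone, against 22% of all genes, and 9 with it, against 26.3%. In PPFP cells pioglitazone raised 8 and lowered 1 of these targets, against 7.63% and 7.13%. With the replicate block it raised 9 and lowered 1 of them, against 27.7% and 23.9%.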

How the data were processed

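RNA-seq of 12 libraries (4 groups of 3) was used. Per the labels and the study's methods, the authors aligned reads with TopHat2 2.0.11 to the rn4 rat genome and made the deposited integer counts per gene symbol with HTSeq 0.6.1p1 in the intersection-strict mode, without normalization. The strand setting is not given in the sources used here, so reads of a gene and an overlapping antisense gene cannot be told apart. The ChIP-seq peak lists were not used here, because no annotation of rn4 was at hand.

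The analysis ran in R 4.3.3 and edgeR 4.0.16. Each comparison took the 6 libraries of its groups, dropped low genes by filterByExpr, applied TMM factors and fitted a quasi-likelihood model with no replicate term, pairwise as in the study; p values were adjusted by Benjamini and Hochberg's method over every gene tested. The interaction used all 12 libraries. An adjusted p with no tool named is from this edgeR fit. Errors of log2 fold changes are standard errors, computed from the F statistic, and those of CPM values are SDs. The functions were tested on simulated counts. Library totals of 23.7 M to 35.2 M counts gave a biological coefficient of variation of 0.126 in PPFP cells and 0.156 in EV cells for pioglitazone (0.0365 and 0.0372 with the replicate block).

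To check the pairing, each library's log2 CPM was taken relative to its group mean and same-numbered libraries were correlated. The value was 0.744, 0.465 and 0.433 between PPFP-Pio and PPFP+Pio and 0.532, 0.729 and 0.773 between EV-Pio and EV+Pio, so numbers were taken to pair libraries within a line. The study's methods have the samples of an experiment share sequencing lanes, but the labels do not say that a number marks an experiment. PPFP libraries 2 and 3 also correlated across numbers, at 0.351 and 0.536, so the pairing of these libraries is not settled. The pairing was read from the same counts that the block then tests, and every p value with the block carries this limit. That the 3 libraries of a group are independent experiments comes from the study's methods, and p values measure the spread between them.

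By rule, the values in each library were given, per comparison and pathway, for the 6 members with the largest absolute log2 fold change among those with an adjusted p under 0.05; those of other members, such as Gapdh, Hk2, Ldha, Pgk1 and Pdha1, were added after their values were seen. The members and the lists were chosen with earlier results of these data known. Other settings tried were DESeq2 1.42.0, the exact test of edgeR (tagwise dispersion), RLE factors, scaling by library size alone, no filter, a stricter filter of 10 counts in each library, 1 fit of all 12 libraries, the replicate block and leaving out each library.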

Additional observations from a re-analysis of the deposited data

Results flagged for a closer look

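The response to pioglitazone differed between PPFP and EV cells for 3 genes by the interaction test. The difference, PPFP minus EV on the log2 scale, was 0.66 for Pcx (adjusted p = 0.0014), 0.7 for Aco1 (adjusted p = 0.016) and -0.59 for Pfkm (adjusted p = 0.04). In PPFP cells the response itself was 0.56 for Pcx, 0.69 for Aco1 and -0.59 for Pfkm, and in EV cells it was -0.11, -0.03 and -0.01. The Pfkm call was lost in 10 of the 12 fits that left out 1 library and without a filter on low counts (adjusted p = 0.059), and the Aco1 call in 2.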

How the results depend on the processing

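None of the members with the 6 largest called changes of a comparison and pathway changed direction under any setting run; the direction of the other called members was not followed. Scaling by library size alone moved the glycolysis median to -0.013 for PPFP against EV cells with pioglitazone and to 0.060 for pioglitazone in PPFP cells, and that of all genes with it, to -0.12 and -0.036. The replicate block raised the counts for pioglitazone in PPFP cells to 16 glycolysis and 11 TCA cycle genes and those of the interaction to 12 and 10. For PPFP against EV cells same-numbered libraries did not deviate together (correlations of -0.252, 0.317 and -0.322 without and -0.248, 0.237 and -0.380 with pioglitazone), so the numbers were not taken to pair libraries across the lines, although the samples of an experiment shared lanes. The block gave 8 and 10 genes called without and 8 and 10 with pioglitazone, when 39.5% and 44.2% of all genes were called, and of the 18 hypoxia-responsive genes 4 higher and 4 lower without and 10 and 3 with it. With that block Pfkfb1 passed without pioglitazone, and Pfkfb3 no longer passed with it (adjusted p = 0.058). The interaction gave 3 glycolysis genes in DESeq2 and 0 without a filter on low counts. With all 12 libraries in 1 fit Ldhb and Idh1 no longer passed for pioglitazone in PPFP cells (adjusted p = 0.13 and 0.05), nor did Dld in the exact test (0.18). The Pdha1 call for pioglitazone in PPFP cells was lost in both of these, with RLE factors, with library size alone and without a filter.

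Leaving out 1 library at a time gave 5 to 13 glycolysis genes for PPFP against EV cells without and 8 to 14 with pioglitazone, 2 to 5 for pioglitazone in PPFP cells and 0 to 2 for the interaction. The TCA cycle counts were 9 to 12, 9 to 13, 3 to 6 and 1 to 2. The share of all genes called ranged from 33.2% to 46.8%, 41.3% to 55.3%, 6.24% to 17.03% and 1.17% to 2.92%, and the TCA cycle medians for the lines ranged from 0.13 to 0.38 without and from 0.21 to 0.53 with pioglitazone. All other alternatives kept each count within 1.5 times. With 3 libraries per group, a p that missed the threshold does not show that levels were equal.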
